A study of Homo sapiens with 18 samples.

Results

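DLD, dihydrolipoamide dehydrogenase, was described with 9 genes of the ketoacid dehydrogenase complexes in RNA sequencing counts from 18 libraries of cultured human cancer cell lines. These 10 genes, of 20263 in the count table, were the rows whose Ensembl ID carries the symbol DLD, DLAT, DLST, DBT, PDHX, PDHA1, PDHB, OGDH, PDK1 or PDP1. DLD led the choice because its level was much higher in treated libraries labelled MHCC-97H, so the values of the 10 genes under that label are given as a description, without p-values. All 10 genes passed the filter on low counts, with 163 to 7393 counts per library.

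The treated groups received 20 nM H3B-8800, a small molecule that binds the splicing factor SF3B1, and the control groups received its solvent DMSO. Both treatments lasted 24 h in high-glucose medium with 10% serum. The 3 line labels were MHCC-97H, from liver cancer, MDA-MB-231, from breast cancer, and HCT-116, from colon cancer, all recorded as wild type, with 3 treated and 3 control libraries under each. The labels leave it unsaid if replicates are separate cultures, and a p-value here covers only the spread among libraries of a group, which may be technical.

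The ketoacid dehydrogenase complexes sit in the mitochondrial matrix and remove carbon dioxide from pyruvate, from oxoglutarate or from the ketoacids of branched-chain amino acids. Each complex has its own E1, which decarboxylates the substrate, and its own E2, which passes the acyl group to coenzyme A through a lipoyl arm, while all of them share the E3 enzyme DLD, which reoxidises that arm and makes NADH. Pyruvate dehydrogenase is switched off by kinases such as PDK1 and switched on by phosphatases such as PDP1, and DLD also serves the glycine cleavage system.

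Library totals ran from 28232315 to 41488278 counts. Libraries with the HCT-116 label resembled those with the MDA-MB-231 label, with a median Pearson r of 0.989 between their log2 CPM (counts scaled to library size) across 12542 genes, against 0.612 between either label and MHCC-97H. Libraries within a label were no more alike, with a median of 0.987 for HCT-116 and 0.989 for MDA-MB-231. The 5 intestinal epithelium markers KRT20, LGALS4, VIL1, CDH17 and CDX2 summed to 1600 to 1690 CPM in the 12 libraries of those 2 labels and were at 0 counts in all 6 MHCC-97H libraries. All 6 liver markers, ALB among them, also had 0 counts under the MHCC-97H label, which allows up to 0.0142 CPM over its 6 libraries (3 counts, counting error only). In the 12 libraries of the other labels the same markers summed to 23.6 to 38.1 CPM. ALB averaged 17.2 CPM under MDA-MB-231 and 21.2 CPM under HCT-116. The 5 breast markers did not go one way. MHCC-97H libraries held a mean of 1510 CPM of KRT17 and MDA-MB-231 libraries 0.241 CPM, whereas GATA3 had 0 counts under MHCC-97H and 49.8 CPM under MDA-MB-231, and ESR1, KRT5 and KRT14 were at 0.76 CPM or less under both. Epithelial and mesenchymal markers were also mixed. EPCAM was at 16.3 CPM under MHCC-97H, 0.0176 CPM under MDA-MB-231 and 0.0808 CPM under HCT-116, while CDH1, KRT19 and KRT8 were lower under MHCC-97H. VIM and TWIST1 were higher under MHCC-97H, and FN1, CDH2 and ZEB1 were lower. The identity of the lines was not tested, and values under the HCT-116 label and the MDA-MB-231 label are set side by side rather than counted as evidence from separate lines. Replicate 2 of both HCT-116 groups stood apart from the other libraries of its group, with a chi-square per gene of 40.9 to 61.8 against 21.4 to 31.3 for every other pair of replicates.

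DLD (ENSG00000091140, chromosome 7, 107890970 to 107931730, plus strand, GRCh38) had 89.0, 101 and 98.1 CPM in H3B-8800 libraries labelled MHCC-97H, against 39.5, 39.8 and 42.4 CPM in DMSO libraries. The lowest treated library was above the highest control, and the spread within each group was small beside the gap. The underlying counts were 3531, 3453 and 3286 in H3B-8800 libraries and 1193, 980 and 1372 in DMSO libraries. Group means were 96.0 ± 6.21 CPM after H3B-8800 and 40.6 ± 1.58 CPM after DMSO (SD, n = 3 each), a log2 fold change of 1.24 (SE 0.06, 95% interval 1.11 to 1.38), or 2.37-fold. Of the 14234 genes tested, 354 (2.49%) had a log2 fold change at least as high as that of DLD. CPM here are scaled by TMM, which sets the libraries on a common total after trimming extreme genes. In a bulk library, a change in every cell and a change in the share of cells that carry an RNA cannot be told apart.

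Under the other labels every library, treated or not, had more DLD than the highest MHCC-97H library. DLD had 131, 116 and 117 CPM in H3B-8800 libraries labelled MDA-MB-231, against 135, 138 and 134 CPM in DMSO libraries. Every treated library lay below every control there, by a small margin. The log2 fold change was -0.16 (SE 0.06, 95% interval -0.29 to -0.03), which did not pass the edgeR quasi-likelihood test across all genes (Benjamini-Hochberg adjusted p = 0.62, unadjusted p = 0.022). In H3B-8800 libraries labelled HCT-116 it had 145, 142 and 136 CPM, against 147, 137 and 128 CPM in DMSO libraries. These groups overlapped, and the log2 fold change was 0.04 (SE 0.06, 95% interval -0.10 to 0.17, edgeR adjusted p = 1). The difference between those 2 effects, HCT-116 minus MDA-MB-231, was 0.20 (SE 0.09, 95% interval 0.01 to 0.39) and did not pass the edgeR test (adjusted p = 1).

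**Figure D1:**
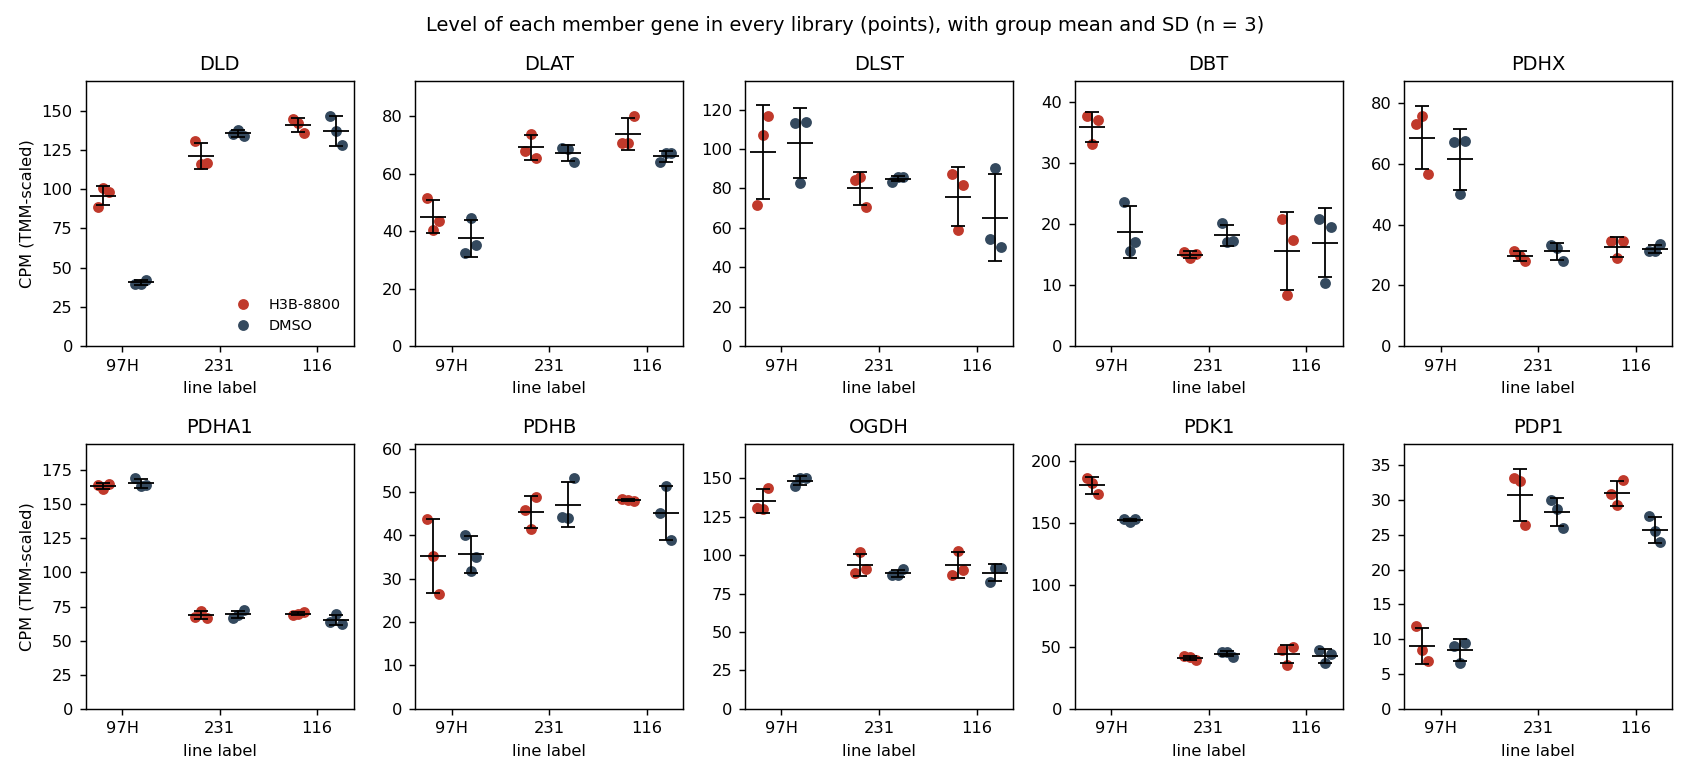
Level of each member gene in TMM-scaled CPM (vertical axes from 0, 1 panel per gene) by line label, with H3B-8800 in red left of DMSO in dark blue. Points are libraries and bars are mean and SD (n = 3). Under the MHCC-97H label DLD was at 89.0 to 101 CPM after H3B-8800 and at 39.5 to 42.4 CPM after DMSO, and DBT was at 33.1 to 37.7 CPM after H3B-8800 and at 15.6 to 23.5 CPM after DMSO.

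Of the 10 genes, DLD and DBT alone passed an edgeR adjusted p of 0.05 under the MHCC-97H label, where 27.6% of all genes tested did. Under that label 12.9% of all genes were called higher and 14.7% lower, a split of calls that depends on the scaling, with 46.7% of the calls higher under TMM, 59.9% under upper-quartile scaling and 87.8% under library totals. DLD was chosen on this contrast, so the count of 2, and whether DLD is in it, is read no further. With library totals as scaling, and in DESeq2, DLAT and PDK1 joined them to make 4. Of all genes, 20% were called with library totals. In DESeq2 4333 genes were called, 34.5% of those given an adjusted p. Without control replicate 3, treated replicate 1 or treated replicate 3 of the label, DBT was no longer called. The share of all genes called was then 14.9%, 18.9% and 22.2%.

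The lipoyl-carrying E2 subunits, which are the partners that DLD reoxidises, did not follow it as a group. DBT, the E2 of the branched-chain ketoacid dehydrogenase (chromosome 1, 100186919 to 100249834, minus strand), had 37.7, 33.1 and 36.9 CPM in H3B-8800 libraries labelled MHCC-97H, against 23.5, 15.6 and 17.0 CPM in DMSO libraries. The groups did not overlap, and the log2 fold change was 0.94 (SE 0.28, 95% interval 0.34 to 1.54), or 1.92-fold. Treated libraries under the MDA-MB-231 label had 15.4, 14.4 and 15.1 CPM of DBT, against 20.1, 17.0 and 17.2 CPM in DMSO libraries, a log2 fold change of -0.28 (SE 0.28, 95% interval -0.88 to 0.32, edgeR adjusted p = 0.87). Every treated library was again below every control. The HCT-116 label gave DBT levels of 20.8, 8.40 and 17.4 CPM in H3B-8800 libraries and 20.8, 10.4 and 19.5 CPM in DMSO libraries, a log2 fold change of -0.12 (95% interval -0.72 to 0.48, edgeR adjusted p = 1). The low value in each of those groups was replicate 2, a library that stood apart. Without treated replicate 2 the value was 0.17, and without control replicate 2 it was -0.38.

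The promoter windows of DLD and DBT, the 2 members with the highest log2 fold changes under the MHCC-97H label, are shown from 250 bases before to 50 bases after the start (RefSeq, GRCh38.p14, nearest to the annotated gene start), with matches to CCAAT and to the ETS core CCGGAA on either strand in capitals. The DLD window is chr7:107890857-107891156 on the plus strand and the DBT window is chr1:100249785-100250084 on the minus strand.
DLD: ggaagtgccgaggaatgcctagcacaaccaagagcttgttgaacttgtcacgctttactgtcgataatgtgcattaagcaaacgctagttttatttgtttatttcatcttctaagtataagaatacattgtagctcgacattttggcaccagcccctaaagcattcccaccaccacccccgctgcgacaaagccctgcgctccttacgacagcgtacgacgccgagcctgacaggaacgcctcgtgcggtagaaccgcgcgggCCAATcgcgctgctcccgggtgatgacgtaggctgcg
DBT: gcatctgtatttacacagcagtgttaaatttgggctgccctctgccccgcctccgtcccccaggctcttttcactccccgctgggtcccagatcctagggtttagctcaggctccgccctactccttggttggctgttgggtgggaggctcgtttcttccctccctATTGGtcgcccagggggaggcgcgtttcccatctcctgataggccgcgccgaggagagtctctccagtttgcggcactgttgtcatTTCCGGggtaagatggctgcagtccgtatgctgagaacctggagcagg
The DLD window holds a single CCAAT match and no ETS core, while the DBT window holds both as their reverse complements. CCAAT was in 6 of the 8 member windows matched and in 34.6% of 34796 windows, and CCGGAA was in 2 of 8, DLST and DBT, and in 17.2% of all. The E-box CACGTG was in 1 of 8 (7.20% of all), ACGTG, which the E-box contains, in 2 of 8 (21.4%), and the CRE TGACGTCA in 0 of 8 (1.84%). A match is a run of letters, not a bound site. OGDH and PDP1 are without a window here.

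DLAT, the E2 of pyruvate dehydrogenase (chromosome 11, 112024814 to 112064390), had 51.5, 40.4 and 43.5 CPM in H3B-8800 libraries labelled MHCC-97H, against 32.6, 44.8 and 35.1 CPM in DMSO libraries. The groups overlapped, with a log2 fold change of 0.27 (SE 0.11, 95% interval 0.04 to 0.50). The HCT-116 libraries had 70.8, 70.7 and 80.3 CPM after H3B-8800 and 64.0, 67.2 and 67.1 CPM after DMSO. The groups did not overlap there, but the log2 fold change of 0.16 (95% interval -0.07 to 0.39) did not pass the edgeR test (adjusted p = 1). Under the MDA-MB-231 label the DLAT log2 fold change was 0.04 (95% interval -0.19 to 0.27).

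DLST, the E2 of oxoglutarate dehydrogenase (chromosome 14, 74881891 to 74903745), had the largest SD in CPM of these genes in 5 of the 6 groups, all but the MDA-MB-231 DMSO libraries, where its SD of 1.41 CPM was the smallest. H3B-8800 libraries labelled MHCC-97H had 71.5, 107 and 117 CPM, against 113, 82.8 and 114 CPM in DMSO libraries, so both groups held 1 low library. Its log2 fold change was -0.07 (SE 0.22, 95% interval -0.54 to 0.41) under the MHCC-97H label, -0.08 (-0.56 to 0.39) under the MDA-MB-231 label and 0.22 (-0.26 to 0.70) under the HCT-116 label. In the last of these, DMSO replicate 2 held 90.5 CPM against 54.5 and 50.5 CPM in the other controls, and leaving it out moved the value to 0.53 (edgeR adjusted p = 0.72).

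The E1 subunits bind and decarboxylate the ketoacid. PDHA1, the E1 alpha subunit of pyruvate dehydrogenase and the one that PDK1 phosphorylates (chromosome X, 19343893 to 19361705), had 164, 161 and 165 CPM in H3B-8800 libraries labelled MHCC-97H, against 169, 163 and 164 CPM in DMSO libraries. Its log2 fold change was -0.01 (SE 0.05, 95% interval -0.12 to 0.09) under the MHCC-97H label and -0.01 (-0.12 to 0.09) under the MDA-MB-231 label. For HCT-116 it was 0.10 (-0.01 to 0.20). These intervals were the narrowest among the 10 genes.

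PDHB, the E1 beta subunit (chromosome 3, 58427630 to 58433857), spread more widely, at 43.7, 35.3 and 26.6 CPM in H3B-8800 libraries labelled MHCC-97H and 40.2, 31.7 and 35.0 CPM in DMSO libraries. The treated libraries spanned the whole range of the controls, and the log2 fold change was -0.02 (95% interval -0.34 to 0.30). It was -0.05 (-0.37 to 0.27) under the MDA-MB-231 label and 0.10 (-0.22 to 0.41) under the HCT-116 label.

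OGDH, the E1 of oxoglutarate dehydrogenase (chromosome 7, 44606572 to 44709066), was the only one of the 10 whose treated libraries all lay below the controls under the MHCC-97H label. It had 131, 130 and 144 CPM in H3B-8800 libraries, against 145, 150 and 150 CPM in DMSO libraries. The margin was small, with a log2 fold change of -0.13 (SE 0.07, 95% interval -0.28 to 0.02), and the value was 0.00 with library totals as scaling and 0.04 once a trend on GC content and length was removed. PDHX, the protein that anchors E3 to the pyruvate dehydrogenase core (chromosome 11, 34915829 to 35020591), had 73.3, 76.0 and 56.8 CPM in H3B-8800 libraries labelled MHCC-97H, against 67.2, 50 and 67.5 CPM in DMSO libraries. These overlapped, with a log2 fold change of 0.16 (95% interval -0.11 to 0.43). Under the other labels the treated and control libraries overlapped for both genes, with log2 fold changes for OGDH of 0.09 (-0.06 to 0.24) for MDA-MB-231 and 0.08 (-0.07 to 0.23) for HCT-116, and for PDHX of -0.08 (-0.35 to 0.19) for MDA-MB-231 and 0.03 (-0.24 to 0.30) for HCT-116.

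PDK1 and PDP1 are among the regulators of pyruvate dehydrogenase. In CPM per kb of exon, PDK1 was above PDP1 in MHCC-97H controls (10.2 against 1.5). It was below PDP1 in MDA-MB-231 controls (3 against 5.04) and in HCT-116 controls (2.88 against 4.59). PDK1, a kinase (chromosome 2, 172555373 to 172608669), had 186, 182 and 173 CPM in H3B-8800 libraries labelled MHCC-97H, against 153, 151 and 153 CPM in DMSO libraries. All treated libraries were above all controls, and the log2 fold change was 0.25 (SE 0.10, 95% interval 0.02 to 0.47). It turned to -0.25 once the trend on GC content and length was removed. Libraries labelled MDA-MB-231 had 39.4 to 42.5 CPM of PDK1 after H3B-8800 and 41.9 to 46.1 CPM after DMSO (-0.11, 95% interval -0.34 to 0.11), and those labelled HCT-116 had 35.7 to 49.9 CPM after H3B-8800 and 36.7 to 47.5 CPM after DMSO (0.04, -0.18 to 0.27). PDP1, a phosphatase (chromosome 8, 93857807 to 93926066), had 11.9, 8.38 and 6.84 CPM in H3B-8800 libraries labelled MHCC-97H, against 9.07, 6.62 and 9.51 CPM in DMSO libraries. These groups overlapped, with a log2 fold change of 0.11 (95% interval -0.27 to 0.48). Under the HCT-116 label PDP1 had 30.8, 29.2 and 32.8 CPM after H3B-8800 and 27.7, 25.5 and 23.9 CPM after DMSO, which did not overlap, yet the log2 fold change of 0.27 (95% interval -0.09 to 0.63) did not pass the edgeR test (adjusted p = 1). For MDA-MB-231 it was 0.12 (-0.23 to 0.48), with overlapping groups.

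**Figure D2:**
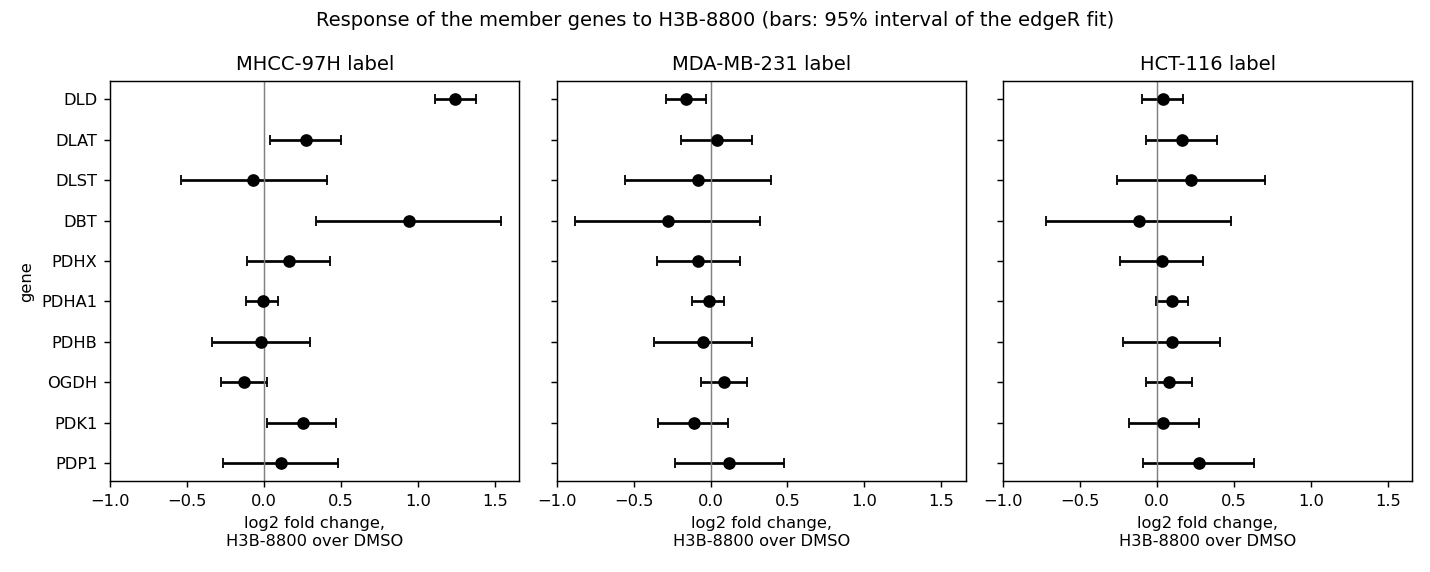
Log2 fold change of H3B-8800 over DMSO (horizontal axis) for the 10 genes (rows) under each line label (panels), with 95% intervals of the edgeR fit. DLD at 1.24 and DBT at 0.94 lie to the right under the MHCC-97H label, and under the other labels no gene lies beyond -0.28 or 0.27.

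Counted together, 0 of the 10 genes passed the edgeR test under the MDA-MB-231 label (0.0351% of all genes did) and 0 under the HCT-116 label (0.0351%). At an unadjusted p under 0.05 the counts were 1 of 10, DLD, under MDA-MB-231 and 0 of 10 under HCT-116, beside 7.19% and 4.60% of all genes. DESeq2 and limma voom also called 0 under each, and so did fits without replicate 2 of either HCT-116 group. The mean of the 2 effects gave 0 of 10 in edgeR (0.0422% of all genes), with 0 at an unadjusted p under 0.05. Their difference gave 0 of 10 (0.0351%), with DLD at an unadjusted p under 0.05. Few genes of any kind were called under these labels, so a count of 0 says little about the 10 in particular.

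By groups that did not overlap, 3 of the 10 were higher in every treated library under the MHCC-97H label (DLD, DBT and PDK1; 19.6% of all genes) and 1 was lower (OGDH; 28.0%). Under the MDA-MB-231 label 0 were higher (8.67%) and 2 were lower (DLD and DBT; 9.86%). Under the HCT-116 label 2 were higher (DLAT and PDP1; 3.71%) and 0 were lower (3.29%). The median log2 fold change of the 10 was 0.13 under MHCC-97H (-0.058 over all genes), -0.06 under MDA-MB-231 (-0.002) and 0.09 under HCT-116 (0.000).

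DMSO libraries were also compared between the labels. DLD averaged 40.6 ± 1.58 CPM under the MHCC-97H label, against 135 ± 2.00 CPM under MDA-MB-231 and 137 ± 9.10 CPM under HCT-116 (SD, n = 3 each), which is a log2 difference of -1.75 (SE 0.06) from the mean of the others, or 3.36-fold lower. These DMSO libraries also enter the contrast by which DLD was chosen, so its difference carries no test. Of the other 9 genes, 8 passed an edgeR adjusted p of 0.05 in this contrast, where 84.6% of all genes passed, so the count is near the background. Among these 5 were higher under the MHCC-97H label and 3 were lower, beside 40.7% and 43.9% of all genes.

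Higher under the MHCC-97H label were PDK1, PDHA1, PDHX, OGDH and DLST. PDK1 averaged 152 ± 1.45 CPM in MHCC-97H controls, against 44.6 ± 2.31 CPM in MDA-MB-231 controls and 42.9 ± 5.60 CPM in HCT-116 controls, a log2 difference of 1.80 (SE 0.09, edgeR adjusted p = 1.3e-11), or 3.48-fold. PDHA1 averaged 165 ± 3.00 CPM, against 69.2 ± 2.69 and 65.2 ± 3.69 CPM in the MDA-MB-231 controls and the HCT-116 controls (log2 difference 1.30, SE 0.04, edgeR adjusted p = 6.7e-14). PDHX differed by 0.96 (SE 0.11, edgeR adjusted p = 3.8e-07) and OGDH by 0.75 (SE 0.06, edgeR adjusted p = 6.4e-09). DLST was least certain at 0.47 (SE 0.19, edgeR adjusted p = 0.031). Its call was lost with a replicate block (0.48, adjusted p = 0.091), with library totals (0.20, adjusted p = 0.33) and without any of 4 control libraries, MHCC-97H replicates 1 and 3 and HCT-116 replicates 1 and 3 (adjusted p = 0.067 to 0.12). Library totals also moved the median of all genes, to -0.353 from -0.083.

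PDP1, DLAT and PDHB were lower under the MHCC-97H label. PDP1 averaged 8.40 ± 1.56 CPM in MHCC-97H controls, against 28.2 ± 2.01 CPM in MDA-MB-231 controls and 25.7 ± 1.90 CPM in HCT-116 controls (log2 difference -1.68, SE 0.16, edgeR adjusted p = 6.6e-08). PDK1 and PDP1 thus differed in opposite directions. Of the other kinases and phosphatases of pyruvate dehydrogenase, PDK3 was higher (0.99, edgeR adjusted p = 2.3e-07) and PDK4 lower (-1.21, edgeR adjusted p = 4e-08). PDK2 (0.12) and PDP2 (-1.56) did not pass. DLAT differed by -0.83 (SE 0.10, edgeR adjusted p = 7.6e-07), a call lost once the trend on GC content and length was removed (-0.23, adjusted p = 0.052). PDHB differed by -0.37 (SE 0.13, edgeR adjusted p = 0.016). Removing the same trend turned PDHB to 0.21 (adjusted p = 0.19), and without MHCC-97H control replicate 2 it was -0.30 (adjusted p = 0.085). DBT did not pass the test at 0.10 (95% interval -0.42 to 0.61, edgeR adjusted p = 0.72), but with the trend removed it differed by 1.05 (adjusted p = 1.4e-05).

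Between the HCT-116 and MDA-MB-231 controls 0 of 10 genes passed the edgeR test (0.0351% of all genes), with 0 at an unadjusted p under 0.05. Log2 differences ran from -0.38 to 0.03.

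**Figure D3:**
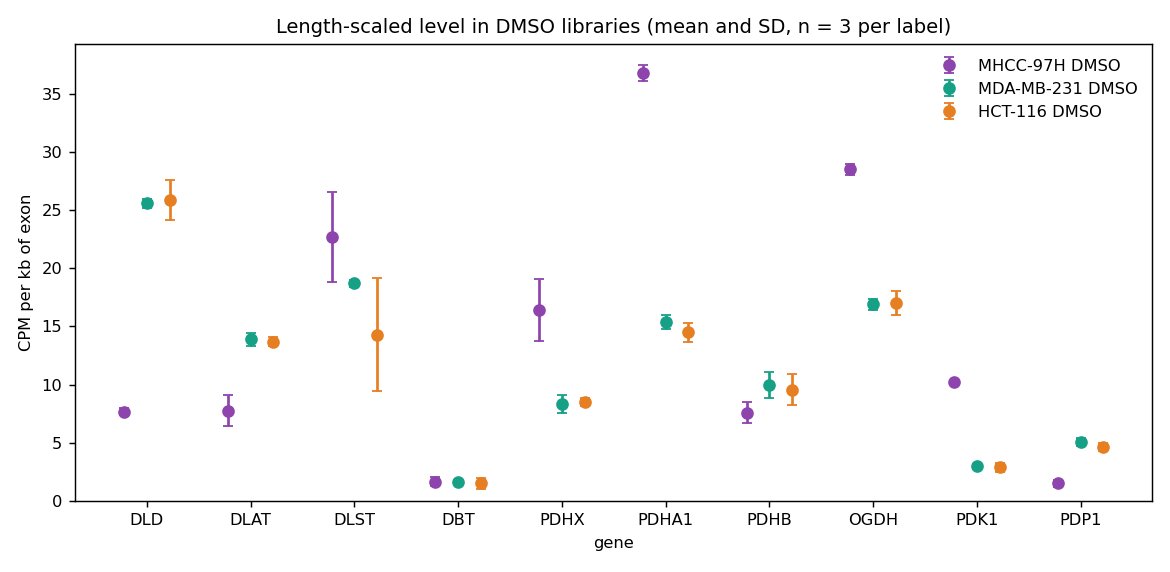
Level of the 10 genes in DMSO libraries, in CPM per kb of exon (vertical axis from 0), with the MHCC-97H label left of MDA-MB-231 and HCT-116 right of it within each gene. Points are means and bars are SD (n = 3). DLD was at 7.65 CPM per kb under MHCC-97H and at 25.6 and 25.9 CPM per kb under the other labels, while PDHA1 was at 36.8, 15.4 and 14.5 CPM per kb.

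Levels between genes were set side by side as CPM per kb of exon. Under the MHCC-97H label the controls ran from PDHA1 (36.8 ± 0.668), OGDH (28.5 ± 0.498) and DLST (22.7 ± 3.87) through PDHX (16.4 ± 2.67) and PDK1 (10.2 ± 0.0971) to DLAT (7.76 ± 1.34), DLD (7.65 ± 0.298), PDHB (7.56 ± 0.907), DBT (1.65 ± 0.376) and PDP1 (1.50 ± 0.278). DLAT, DLD and PDHB did not differ beyond their SDs, nor did DBT and PDP1. The order under the MDA-MB-231 label began with DLD (25.6 ± 0.377), DLST (18.7 ± 0.309), OGDH (16.9 ± 0.460), PDHA1 (15.4 ± 0.599) and DLAT (13.9 ± 0.558). Under the HCT-116 label it began with DLD (25.9 ± 1.72), OGDH (17.0 ± 1.03), PDHA1 (14.5 ± 0.820), DLST (14.3 ± 4.84) and DLAT (13.7 ± 0.377), of which the last 3 overlapped within their SDs. DLD was 1st of 10 under both of these labels and 7th under MHCC-97H. The exons annotated for PDHB join to 4717 bases, while its longest coding transcript has 1527, and scaled by coding transcripts PDHB moved up to rank 4 under MHCC-97H and rank 2 under each of the other labels.

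DLD was also set against the E2 subunits it serves, as its share of the summed CPM per kb of DLD, DLAT, DLST and DBT. Under the MHCC-97H label the share was 36.1, 35.3 and 32.8% in H3B-8800 libraries, against 18.1, 20.7 and 19.2% in DMSO libraries, a difference of 15.4 percentage points (no test, since DLD was chosen on this contrast). All treated shares there were still below the lowest share under any other label, 38.1%. Under the MDA-MB-231 label it was 42.0, 38.1 and 42.1% in H3B-8800 libraries, against 42.6, 42.9 and 42.8% in DMSO libraries, a difference of -2.02 points (two-sided exact permutation test, p = 0.1, the smallest that 3 against 3 allows). Without treated replicate 2 that difference was -0.714. Under the HCT-116 label it was 43.4, 48.6 and 41.6% in H3B-8800 libraries, against 50.5, 42.7 and 47.6% in DMSO libraries, a difference of -2.41 points (exact permutation test, p = 0.5). With same-numbered libraries as pairs, added after seeing the data, 2 of 3 pairs were lower after H3B-8800 (exact sign-flip permutation p = 0.50). Leaving out single HCT-116 libraries gave -4.52 without control replicate 2, -4.45 without treated replicate 2, -0.606 without control replicate 1 and -0.951 without treated replicate 3.

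The log2 ratio of PDK1 over PDP1 in CPM leaves out the other kinases and phosphatases. It was 4.35 ± 0.36 in H3B-8800 libraries and 4.20 ± 0.27 in DMSO libraries labelled MHCC-97H. It was 0.43 ± 0.13 in H3B-8800 libraries and 0.66 ± 0.04 in DMSO libraries labelled MDA-MB-231, a difference of -0.23 (exact permutation test, p = 0.1). In the HCT-116 libraries it was 0.50 ± 0.18 in H3B-8800 libraries and 0.73 ± 0.19 in DMSO libraries, also -0.23 (exact permutation test, p = 0.3). Each HCT-116 treated library lay below the control with its number, by 0.17, 0.24 and 0.30, and with the numbers as pairs the two-sided exact sign-flip permutation p was 0.25, the smallest that 3 pairs allow. These ratios are between genes in CPM and not per length, so only their differences between groups are compared.

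**Figure D4:**
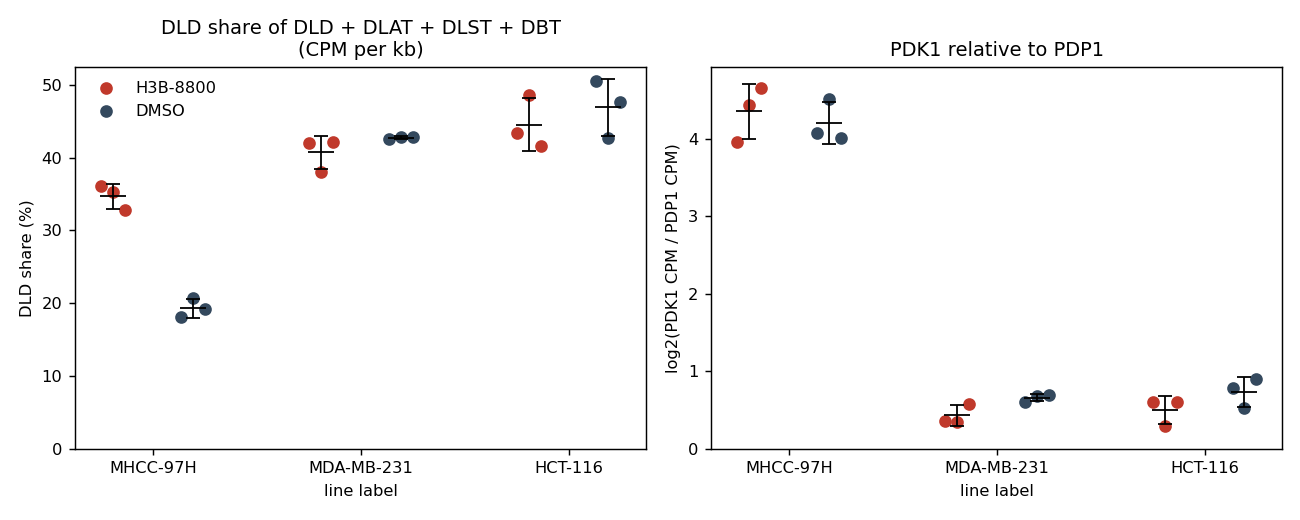
DLD as a share of the summed CPM per kb of DLD, DLAT, DLST and DBT (left, %, axis from 0) and log2 of PDK1 over PDP1 (right, axis from 0), for each library by line label, with H3B-8800 left of DMSO. Bars are mean and SD (n = 3). The DLD share was 32.8 to 36.1% after H3B-8800 and 18.1 to 20.7% after DMSO under the MHCC-97H label, and the PDK1 to PDP1 ratio there was 3.96 to 4.66 on the log2 scale in all 6 libraries.

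Several members are poor in G and C, and over all genes the response moved with GC content. Across 14223 genes the log2 fold change under the MHCC-97H label had a Spearman correlation of -0.53 with transcript GC content and 0.36 with exonic length, and genes are not independent replicates. The signs were opposite under the other labels, at 0.32 and -0.16 for MDA-MB-231 and 0.18 and -0.12 for HCT-116. DLD is 40.3% GC (percentile 11.7 of the genes tested), DBT 39.1% (percentile 6.95) and PDK1 41.6% (percentile 17.5), whereas OGDH is 56.0% (percentile 69.7). With the trend on GC content and length removed per library, the log2 fold change under the MHCC-97H label was 0.99 for DLD, 0.50 for DBT and 0.08 for DLAT. The edgeR calls among the members were then DLD and PDK1, with PDK1 now lower at -0.25, beside 14% of all genes. DBT was no longer called. DLD was chosen on this contrast, so these calls are a description and are read no further. Over all the alternatives tried, the DLD value ran from 0.99 to 1.38.

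**Figure D5:**
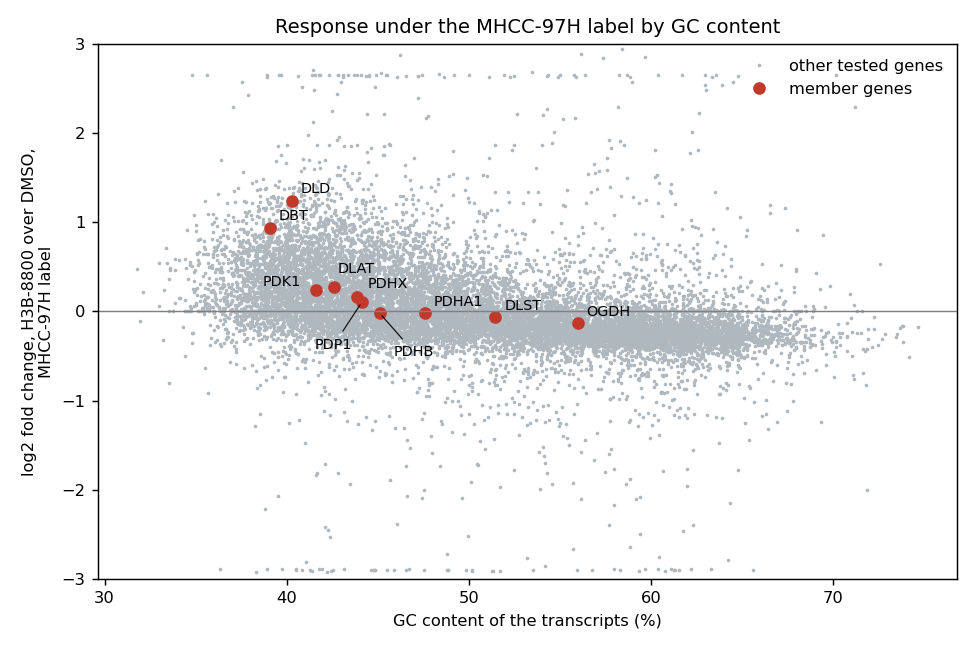
Log2 fold change of H3B-8800 over DMSO under the MHCC-97H label (vertical axis, limited to -3 and 3, which leaves out 121 genes) against transcript GC content in % (horizontal axis), for 14102 genes in grey and the 10 members in red. DLD at 40.3% GC and DBT at 39.1% GC are the highest members, and OGDH at 56.0% GC is the lowest.

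The genes whose 6 group means of log2 CPM lay closest to those of DLD, among 9232 genes averaging at least 10 CPM, were PRRC2C, PHF3, DST, BAZ1B and PEAK1. Each had a root mean square difference of 0.09 from DLD after centring. PRRC2C averaged 123 ± 11.3 CPM in H3B-8800 libraries and 56.9 ± 10.2 CPM in DMSO libraries labelled MHCC-97H, and 181 to 196 CPM in the other groups. PHF3 averaged 48.0 ± 6.74 CPM in H3B-8800 libraries and 21.1 ± 1.83 CPM in DMSO libraries labelled MHCC-97H. The transcripts of the 5 ran from 40.0% GC (PHF3) to 48.0% GC (BAZ1B), beside 40.3% for DLD.

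DLD lies in a stretch of chromosome 7 with 7 other tested genes within 500 kb. LAMB1, a laminin chain on the opposite strand that shares 70 exonic bases with DLD, rose under the MHCC-97H label, at 269 ± 3.68 CPM in H3B-8800 libraries and 195 ± 13.8 CPM in DMSO libraries (log2 fold change 0.47, SE 0.09, edgeR adjusted p = 0.0032). Counting is not stated to use strand, so reads from those 70 bases cannot be assigned, and their part in the DLD value was not tested. COG5, a subunit of a Golgi tethering complex, had 0.29 (SE 0.10, edgeR adjusted p = 0.05), which did not pass. CBLL1 (-0.08), DUS4L (0.03), BCAP29 (0.15) and SLC26A4 (1.26, at 0.382 CPM in H3B-8800 libraries and 0.154 CPM in DMSO libraries) did not pass either, and NRCAM had 0 counts in the MHCC-97H libraries. Other members share exonic bases with opposite-strand genes, 956 for PDHA1 with MAP3K15, 259 for PDHX with APIP and 212 for DLAT with PIH1D2. Antisense RNA genes share 445 exonic bases with PDK1, 360 with PDHB and 40 with DBT. DLST and PDHA1 have processed pseudogenes, DLSTP1 and PDHA1P1, which are not in the count table, and their reads could mix with those of the parent gene. Only pseudogenes named after a member were looked for.

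Of 63 other genes of the pathway in 6 lists, 61 were tested, all but PDHA2, a testis form of the E1 alpha subunit, and OGDHL, a relative of OGDH. Under the MHCC-97H label 4 rose and 16 fell in edgeR, with 41 not called (12.9% of all genes were called higher and 14.7% lower), and their median log2 fold change was -0.11 (-0.058 over all genes). The direction depends on the scaling: 6 rose and 2 fell with library totals (median 0.01, all genes 0.039), beside 2501 higher and 346 lower of 14234 genes. With the trend on GC content and length removed fewer were called, but the direction stayed. There 3 rose and 6 fell (median -0.14, all genes -0.009), beside 1035 higher and 955 lower of all genes. Without single MHCC-97H libraries, the number that fell ran from 5 (treated replicate 2) to 15 (control replicate 1), with 6 without control replicate 3. Of all genes, 1044 of 14394, 1930 of 14390 and 970 of 14391 were called lower in these fits. Only IBA57, ACADSB and HIBADH among the 20 were called in the same direction under every alternative tried. In edgeR 0 of 61 were called under MDA-MB-231, with 10 at an unadjusted p under 0.05, and 0 under HCT-116, with 1. Of all genes 0.0351% were called under each, with 7.19% at an unadjusted p under 0.05 for MDA-MB-231 and 4.60% for HCT-116. Limma voom called 0 under each, and DESeq2 called 0 under MDA-MB-231 and 1 under HCT-116, the thiamine transporter SLC19A2 (1.10, DESeq2 adjusted p = 0.02). SLC19A2, named after its values were seen, averaged 33.0 ± 4.87 CPM in H3B-8800 libraries and 15.4 ± 2.47 CPM in DMSO libraries labelled HCT-116, but 19.6 ± 11.4 CPM in H3B-8800 libraries and 38.4 ± 3.01 CPM in DMSO libraries labelled MDA-MB-231 (edgeR adjusted p = 0.53 and 0.48). Without treated replicate 1 of MDA-MB-231, edgeR called SLC19A2 under both labels, at -1.56 (adjusted p = 1e-04) for MDA-MB-231 and 1.10 (adjusted p = 0.0012) for HCT-116. No other edgeR alternative called SLC19A2 under either label. The library left out belongs to the group with an SD of 11.4 CPM, and the HCT-116 libraries were the same as before.

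Among 11 other subunits and regulators of the complexes, 1 rose and 1 fell under the MHCC-97H label, near the 12.9% and 14.7% of all genes. PDK4, another pyruvate dehydrogenase kinase, averaged 8.03 ± 1.24 CPM in H3B-8800 libraries and 5.29 ± 0.260 CPM in DMSO libraries (log2 fold change 0.60, SE 0.12, edgeR adjusted p = 0.0042). BCKDHA, the E1 alpha subunit of the branched-chain complex whose E2 is DBT, fell to 200 ± 15.1 CPM in H3B-8800 libraries, against 256 ± 16.2 CPM in DMSO libraries (-0.36, SE 0.09, edgeR adjusted p = 0.011), and was -0.07 (adjusted p = 0.68) with the trend removed. In the glycine cleavage system, which also uses DLD, 0 of 3 rose and 1 fell, the lipoyl carrier GCSH (-0.38, SE 0.11, edgeR adjusted p = 0.023). It was -0.24 (adjusted p = 0.14) with library totals.

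In the list of lipoate and thiamine supply, which makes the cofactors of E2 and E1, 0 of 16 rose and 3 fell, beside 12.9% and 14.7% of all genes. IBA57, an iron-sulfur cluster factor, was at 34.1 ± 1.18 CPM in H3B-8800 libraries and 44.0 ± 2.21 CPM in DMSO libraries (-0.37, SE 0.07, edgeR adjusted p = 0.0037), with BOLA3 at -0.26 (adjusted p = 0.019) and GLRX5 at -0.32 (adjusted p = 0.04). Of 3 genes of pyruvate entry, MPC2 of the mitochondrial pyruvate carrier (-0.32, edgeR adjusted p = 0.0063) and pyruvate carboxylase PC (-0.37, edgeR adjusted p = 0.014) fell. Other enzymes of the tricarboxylic acid cycle had 0 of 14 higher and 6 lower, with a median of -0.17, beside 12.9% higher, 14.7% lower and a median of -0.058 for all genes. They include IDH3G at 168 ± 4.21 CPM in H3B-8800 libraries and 220 ± 7.73 CPM in DMSO libraries (-0.39, SE 0.08, edgeR adjusted p = 0.0035), SUCLG1 (-0.28, edgeR adjusted p = 0.0049), SDHB (-0.21, edgeR adjusted p = 0.017) and MDH2 (-0.22, edgeR adjusted p = 0.018). With library totals 1 rose and 1 fell (median -0.03, all genes 0.039), and with the trend removed 0 rose and 1 fell (median -0.15, all genes -0.009). Of all 14234 genes, 346 and 955 were called lower in these settings. Under the other scalings, filters, blocks and fits, 2 (upper-quartile scaling) to 8 (replicate block) fell. Of all 14234 genes, 1301 were called lower with upper-quartile scaling and 2481 with the replicate block. Among these other settings, only a fit of the label's own libraries had a gene of this list that rose.

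Branched-chain amino acid breakdown, the pathway that feeds and drains the DBT reaction, had 3 of 14 higher and 3 lower, beside 12.9% and 14.7% of all genes. ACADSB, an acyl-CoA dehydrogenase, averaged 10.3 ± 0.616 CPM in H3B-8800 libraries and 6.20 ± 1.07 CPM in DMSO libraries (0.73, SE 0.14, edgeR adjusted p = 0.0029). HIBADH, which acts in valine breakdown, was at 0.29 (SE 0.07, edgeR adjusted p = 0.0091). BCAT2, the mitochondrial branched-chain aminotransferase, was at -0.28 (SE 0.08, edgeR adjusted p = 0.018), and IVD, isovaleryl-CoA dehydrogenase of leucine breakdown, at -0.25 (SE 0.07, edgeR adjusted p = 0.015).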

How the data were processed

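RNA sequencing counts of 18 libraries were analysed, 3 in each of 6 groups taken from the labels. The authors deposited whole-number read counts per Ensembl gene, without normalization, and no column was left unmapped. Read trimming with fastp, alignment with HISAT2 and the build GRCh38 are named per the submitters' processing notes. Not given in the sources used here are tool versions, the counting tool, strandedness and the kit. Names, positions, lengths and GC content came from GENCODE 29, which held 20224 of 20263 genes.

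The model used edgeR 4.0.16 under R 4.3.3 with TMM scaling, filterByExpr, 1 mean per group over all 18 libraries and the robust quasi-likelihood F test, which left 14234 genes. The fit was tested on simulated data. Calls are at an adjusted p under 0.05 (Benjamini-Hochberg, over all genes tested). Adjusted p-values are from edgeR unless limma voom (limma 3.58.1) or DESeq2 1.42.0 is named. Standard errors and 95% intervals are of that fit. CPM are TMM-scaled, except those of marker genes, which are per library total. To remove the trend on GC content and length, natural splines with 5 degrees of freedom were fitted per library.

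The 10 genes and all lists were chosen with earlier results of these data known. Beyond the members, the rule named at most 4 called genes per list in order of unadjusted p, the 5 genes most like DLD in group profile, and every tested gene within 500 kb of DLD. Same-numbered treated and control libraries were checked for pairing by correlating their deviations from the group means across genes. This gave 0.15, 0.37 and 0.14 under the HCT-116 label, which was taken as pairing, while the values were -0.03, 0.10 and 0.05 under MHCC-97H and 0.16, 0.07 and 0.05 under MDA-MB-231. Treated replicate 3 under HCT-116 correlated more with control 1 (0.18), so the pairing is uncertain, and no label explains the numbers. Under MDA-MB-231 each treated library correlated most with the control of its number, though weakly. Paired tests of the ratios were run under HCT-116 only. The block for replicate number was coded within each label. Replicate pairs differed by more than sampling noise, at a chi-square of 21.4 to 61.8 per gene.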

Additional observations from a re-analysis of the deposited data

Results flagged for a closer look

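Every treated library labelled MHCC-97H lay above its controls for DLD, and every treated library labelled MDA-MB-231 lay below them. The log2 fold changes were 1.24 and -0.16, a gap of 1.40 that was not tested, because DLD was chosen on the first of these contrasts. Over the alternatives tried, the MDA-MB-231 value ran from -0.22 to -0.05. The log2 fold changes of all genes also correlated with GC content in opposite directions under these labels, at -0.53 and 0.32.

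For DBT the log2 fold changes were 0.94 under the MHCC-97H label and -0.28 under the MDA-MB-231 label, with every treated library above the controls under the first and below them under the second. The MDA-MB-231 value did not pass the edgeR test (95% interval -0.88 to 0.32, adjusted p = 0.87). Once the trend on GC content and length was removed, the MHCC-97H value was 0.50. It was then called only with the replicate block added, which is a description. Over the alternatives tried, the DBT value under MDA-MB-231 ran from -0.32 to -0.12. The gap of 1.22 was likewise not tested.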

How the results depend on the processing

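The counts of 0 members called under the MDA-MB-231 label, under the HCT-116 label, for their mean and for their difference held in all 29 alternatives. Under MHCC-97H, on which DLD was chosen, its value ran from 0.99 to 1.38. The number of members called under the MHCC-97H label was 4 with library totals and with DESeq2 and ran from 1 to 3 when single libraries were left out. Of all genes, 20% were called with library totals and 14.9 to 30.9% without single libraries. With DESeq2 4333 genes were called, 34.5% of those given an adjusted p. Directions are read at 2 decimals. Small values without a call turned sign. Under the MDA-MB-231 label these were PDHA1 with upper-quartile scaling (0.01), PDHB with the replicate block and the GC and length trend removed (0.01), and PDK1 with the trend removed, with or without the replicate block (0.05). Leaving out single libraries gave -0.01 to 0.08 for DLAT, -0.05 to 0.02 for PDHA1 and -0.11 to 0.04 for PDHB there. Under the HCT-116 label it gave -0.01 to 0.09 for DLD, -0.01 to 0.10 for PDHX, -0.39 to 0.17 for DBT and -0.06 to 0.17 for PDK1.

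Between labels in DMSO libraries, PDHB turned to 0.21 with the trend removed and to 0.22 with the replicate block as well, and DBT turned to -0.17 with library totals and ran from -0.11 to 0.21 when single libraries were left out. The causes were not tested. The replicate block left DLD at 1.24 under the MHCC-97H label and at -1.75 between labels. Under the MHCC-97H label it added a call of PDK1 (0.24), beside 32.8% of all genes. With the trend removed as well DLD, DBT (0.50) and PDK1 (-0.25) were called, beside 17% of all genes. Besides these, DLST, given above, and, between labels with the trend removed, DBT (1.06, adjusted p = 4.5e-07), DLAT (-0.23, adjusted p = 0.094) and PDHB (0.22, adjusted p = 0.063), the block ended or added no call of a member.

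Counts of PDP1 were the lowest, at 163 to 308 in MHCC-97H controls, which widens its intervals. Only 3 libraries per group and an uncertain line identity under each label limit what these values can show. So do the GC-related trends, which had opposite signs under the MHCC-97H label and the other labels.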
